A study of Mus musculus with 6 samples.

Results

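The 8 mouse genes Cox4i1, Cox4i2, Cox6a1, Cox6a2, Cox7a1, Cox7a2, Cox8a and Cox8b encode the paired isoforms of 4 cytochrome c oxidase subunits. They were chosen by name, with earlier results of these data known. All 8 were found among the 22056 genes that could be tested (15367 carrying a gene name, the other 6689 an accession alone). They were read by 9 probes, 2 of them for Cox8a and 1 for each of the others, each printed as 1 spot. Every one of these 9 spots was well above background on all 6 arrays and carried no outlier mark.

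Cytochrome c oxidase, complex IV of the respiratory chain, passes electrons from cytochrome c to oxygen and pumps protons across the inner mitochondrial membrane. Its catalytic core is encoded by mitochondrial DNA, and the smaller subunits around it by nuclear genes. For the subunits 6A, 7A and 8, the mouse carries a form made in most tissues, called the liver type (Cox6a1, Cox7a2, Cox8a). It also carries a form made in heart and skeletal muscle (Cox6a2, Cox7a1, Cox8b), which replaces the liver type as muscle matures. Cox7a1 and Cox8b are also made in brown fat. Subunit 4 has the common form Cox4i1 and the alternative form Cox4i2, best known from lung and from cells kept at low oxygen, so that Cox4i2 is not a muscle isoform.

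The RNA came from C2C12, an established mouse myoblast line that divides in serum-rich medium and fuses into myotubes when serum is withdrawn. Cells in 10% serum received siRNA at 70 to 80% confluence, at an amount that the labels print as 20 um, and nothing else separated the groups in the labels: a negative control siRNA (siRNA-NC, 3 arrays) and an siRNA that targets Meg3, a long non-coding RNA (siRNA-MEG3, 3 arrays). The sources used here do not say how long after transfection the RNA was taken. Comparing the groups asks which transcripts differ when Meg3 is targeted, here for the oxidase isoforms.

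The 3 probes for Meg3 itself did not check the labels, since all 3 were too dim on every siRNA-MEG3 array to stand well above background, and only 1 stood so on a siRNA-NC array, array 2. Spots well above background made up 70.1 to 75.2% of each array with siRNA-NC, against 62.8 to 69.3% with siRNA-MEG3. All siRNA-NC arrays came from 1 scan and the siRNA-MEG3 arrays from 2 others, and scan therefore cannot be told apart from group. Over 227 probes printed 10 times, siRNA-MEG3 arrays 1 and 3, at the same position of a slide, shared the scatter of single spots (r = 0.98), and siRNA-NC arrays 1 and 3 did not differ beyond the noise among repeated spots (variance ratio 1.04, against 159 for siRNA-NC arrays 1 and 2). Each such pair was averaged into 1 sample, giving 2 samples in each group. For siRNA-MEG3 arrays 1 and 2 the ratio was also low (1.33), so the p-values below measure a spread that may be technical. The 4 myoblast markers Myod1, Myf5, Des and Cdh15 were well above background on all 6 arrays, and none of 3 hepatocyte or 4 epithelial markers was so on all arrays of either group.

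Cox8b was the only member called. Of the 8 genes, 1 was called higher and 0 lower with siRNA-MEG3 (limma adjusted p under 0.05), where 1.10% of all 22056 genes were called higher and 0.417% lower. The median log2 fold change of the 8 genes was 0.35, beside 0.06 for all genes, with 6 positive and 2 negative values. On single arrays, the siRNA-MEG3 values lay above every siRNA-NC value for Cox8b, Cox7a1, Cox8a and Cox4i1, or 4 of the 8, where 29.3% of genes did so in that direction. For the other 4 genes the groups overlapped, and for 0 of the 8 did siRNA-MEG3 lie wholly below, as 17.8% of genes did.

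Cox8b encodes the muscle form of subunit 8, a small subunit that spans the inner membrane. Its processed signal, background-subtracted but unscaled, read 36.2, 51.5 and 35.9 in array order with siRNA-NC, against 728, 730 and 733 with siRNA-MEG3. The siRNA-NC arrays were thus dim but readable, and all siRNA-MEG3 arrays were far brighter. As log2 signal minus the array's own 75th percentile, the scale of all log2 levels here, it stood at -5.15, -5.46 and -5.09 with siRNA-NC, against -0.72, -0.80 and -0.67 with siRNA-MEG3. The fitted log2 fold change was 4.54 ± 0.24 (SE, n = 2 samples per group; 95% interval 3.91 to 5.18), or 23.3-fold (15.0 to 36.2), with a limma adjusted p of 0.0185. Counted from the highest, its fold change ranked 36 among 22056 genes, and 99.8% of genes had a fold change smaller in size. Normexp background correction adds an offset of 50 and so shrinks the fold change of a dim spot. With normexp and without speck spots, those with a very bright local background, the log2 fold change was 3.18 (limma adjusted p = 0.0044). The call was lost in 3 of 21 other settings, in each of which no gene on the array was called: without a filter on dim probes (4.54; limma adjusted p = 0.0526), with normexp on all spots (3.41; 0.544) and without siRNA-NC array 2, which leaves a lone siRNA-NC sample (4.37; 0.129). The highest limma adjusted p over all 21 settings was 0.544. Without siRNA-MEG3 array 2, again with a lone sample, the log2 fold change was 4.59.

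Cox7a1, the muscle form of subunit 7A, read 202, 310 and 175 with siRNA-NC, against 350, 358 and 322 with siRNA-MEG3 in processed signal. Scaled to the arrays, the log2 levels were -2.66, -2.87 and -2.80 against -1.77, -1.83 and -1.86, so the groups did not overlap. The mean was 1.97-fold higher with siRNA-MEG3, a log2 fold change of 0.98 ± 0.21 (SE, n = 2 samples per group; 95% interval 0.42 to 1.54), which did not pass over all genes (limma adjusted p = 0.129). It passed in 3 of 21 other settings, each of which counted repeated arrays as separate samples: 0.96 with all 6 arrays as 6 samples (limma adjusted p = 0.00296, in a fit that called 17.2% of genes higher and 9.88% lower), 0.96 with 5 samples (0.0286) and 0.96 with the replicate number as a block over 6 arrays (0.0284). Its adjusted p ran from 0.00296 to 0.544 over these settings.

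Cox6a2, the muscle form of subunit 6A, did not pass the threshold. It read 2654, 3504 and 2525 in processed signal with siRNA-NC, against 2105, 2150 and 1949 with siRNA-MEG3. After scaling, the siRNA-MEG3 levels of 0.81, 0.76 and 0.74 lay inside the siRNA-NC range, which was 1.05, 0.63 and 1.05. The log2 fold change was -0.07 ± 0.25 (SE, n = 2 samples per group; limma adjusted p = 0.916), and its 95% interval of -0.74 to 0.60 holds no change of the size seen for Cox8b. The 3 muscle isoforms therefore spanned fold changes from -0.07 to 4.54 on the log2 scale in the same RNA, with intervals for Cox6a2 and Cox8b that lay apart.

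**Figure D1:**
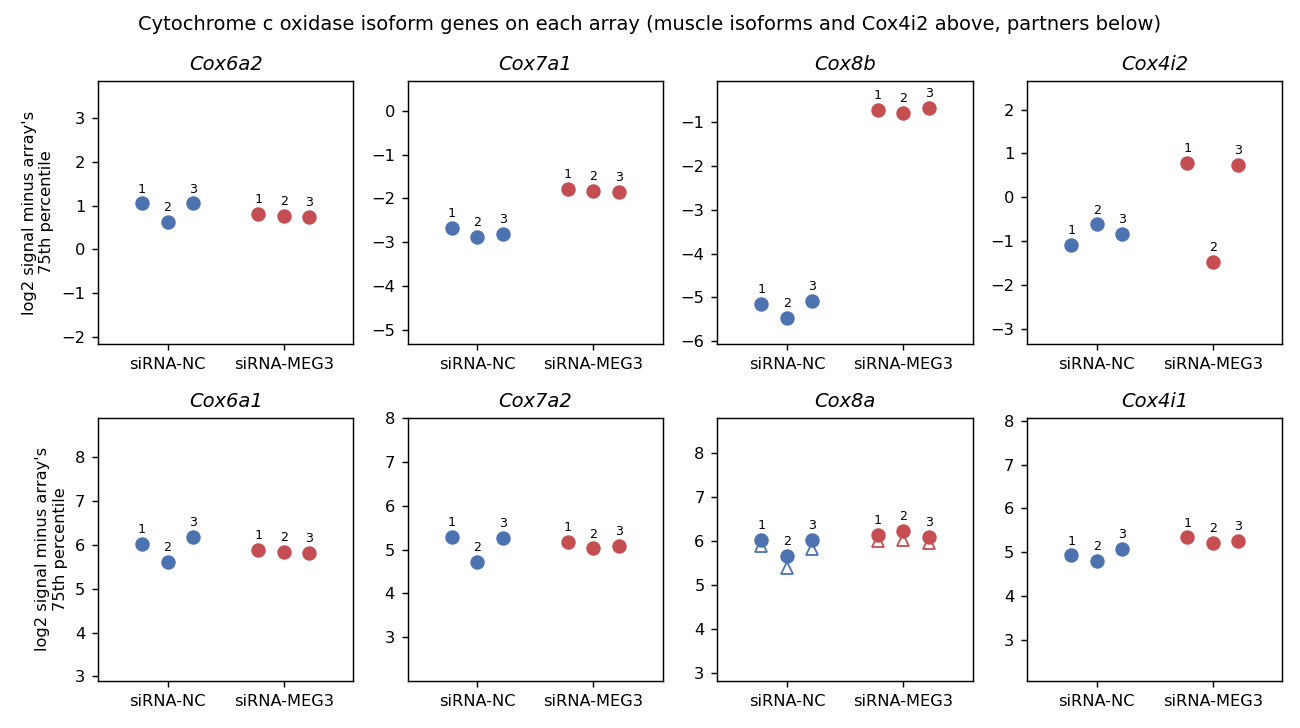
The 8 isoform genes on each array, with the array number above each point: y axis, log2 processed signal minus the array's 75th percentile; x axis, group; blue, siRNA-NC; red, siRNA-MEG3; open triangles, the second Cox8a probe. Each panel spans at least 6 log2 units around its own values. Cox8b rises from about -5.15 to -0.72 on array 1 of each group, Cox7a1 shows a smaller gap without overlap, and Cox4i2 on siRNA-MEG3 array 2 sits at -1.47, away from the other siRNA-MEG3 arrays.

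RefSeq promoter sequences (build GRCm38.p6) were available for 5 of the 8 genes, Cox8b, Cox7a1, Cox8a, Cox6a1 and Cox7a2. The 250 bases before the start are shown for the muscle isoform called higher and for the muscle isoform with the next largest fold change. They are also shown for the liver-type partner of Cox8b, so that the pair stands side by side. Capitals mark matches to the motifs searched, and each sequence runs 5′ to 3′ on the strand of its gene. Cox8b lies on the minus strand at chr7:140900447-140900696, Cox7a1 on the plus strand at chr7:30183921-30184170 and Cox8a on the minus strand at chr19:7217617-7217866.
Cox8b: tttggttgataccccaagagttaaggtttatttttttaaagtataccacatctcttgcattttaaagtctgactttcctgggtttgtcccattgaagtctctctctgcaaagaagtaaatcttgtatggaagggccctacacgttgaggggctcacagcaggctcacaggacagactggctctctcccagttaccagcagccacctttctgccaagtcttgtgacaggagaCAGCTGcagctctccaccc
Cox7a1: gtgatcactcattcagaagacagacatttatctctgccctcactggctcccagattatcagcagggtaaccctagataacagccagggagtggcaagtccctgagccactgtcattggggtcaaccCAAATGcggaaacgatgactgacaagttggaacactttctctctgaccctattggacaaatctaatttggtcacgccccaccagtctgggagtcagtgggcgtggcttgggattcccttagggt
Cox8a: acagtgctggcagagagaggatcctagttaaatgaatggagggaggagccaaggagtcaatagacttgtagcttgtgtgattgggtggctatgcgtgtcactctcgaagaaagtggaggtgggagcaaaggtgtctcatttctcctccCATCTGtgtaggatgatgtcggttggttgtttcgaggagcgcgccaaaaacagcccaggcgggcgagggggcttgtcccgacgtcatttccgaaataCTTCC

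The motifs were searched on both strands of 300 bases, from 250 before the start to 50 after it: the E-box CANNTG, which the MyoD family binds, its subset CAGCTG, the MEF2-type motif, the NRF1-type GCGCANGCG, the ETS-type CCGGAAG and the ERR-type AAGGTCA. Cox8b held 2 matches to CANNTG, both of them CAGCTG: 1 that begins 19 bases before the start, in capitals above, and 1 that begins 16 bases after it. CAGCTG was found in 16.3% of 32851 promoters of that length, and CANNTG in 72.3%. Cox7a1 had 1 CANNTG match, 124 bases before the start, and no CAGCTG. Cox8a had 1 CANNTG match and 2 ETS-type matches, 1 of which crosses the start and is cut off at the end of the sequence shown (8.86% of promoters held an ETS-type match). Cox6a1 had 3 NRF1-type matches, of which 2 overlap on opposite strands, and 1 ETS-type match (6.25% of promoters held an NRF1-type match), and Cox7a2 had 1 CANNTG match. No MEF2-type or ERR-type match was found in the 5 windows (3.69 and 4.72% of promoters). CG dinucleotides in the 300 bases numbered 2 for Cox8b and 7 for Cox7a1, against 32, 20 and 19 for the liver-type genes Cox6a1, Cox7a2 and Cox8a. A match describes the letters only.

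The liver-type partners were bright on every array and none passed the threshold. Cox8a, the common form of subunit 8, read 83396, 115568 and 79496 on its brighter probe with siRNA-NC, against 85044, 96123 and 80154 with siRNA-MEG3. Its log2 levels were 6.02, 5.67 and 6.03 against 6.15, 6.24 and 6.10, close together but without overlap. This gave a log2 fold change of 0.33 ± 0.24 (SE, n = 2 samples per group; 95% interval -0.31 to 0.98; limma adjusted p = 0.527). The second Cox8a probe gave nearly the same result, 0.39 ± 0.26 (limma adjusted p = 0.498, with every probe as its own entry), and its log2 levels, 5.39 to 5.88 with siRNA-NC and 5.95 to 6.03 with siRNA-MEG3, did not overlap either. When each probe was its own entry, 0.998% of 26345 probes were called higher.

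Cox7a2, the common form of subunit 7A, had scaled log2 levels of 5.28, 4.73 and 5.27 with siRNA-NC, which enclosed the siRNA-MEG3 levels of 5.17, 5.03 and 5.08. The log2 fold change was 0.07 ± 0.28 (SE, n = 2 samples per group; limma adjusted p = 0.925), and its sign changed with the setting. Cox6a1, the common form of subunit 6A, stood at 6.02, 5.62 and 6.18 with siRNA-NC, against 5.88, 5.84 and 5.81 with siRNA-MEG3, again inside the siRNA-NC range. Its log2 fold change was -0.02 ± 0.26 (SE, n = 2 samples per group; limma adjusted p = 0.978), and its sign changed with the setting as well. On the scaled log2 axis siRNA-NC array 2 was the lowest siRNA-NC array for these and in all for 7 of the 8 isoform genes, Cox4i2 being the exception; it was also the brightest of the 6 arrays, with a 75th percentile of processed signal of 2266 against 1284 and 1220 on siRNA-NC arrays 1 and 3. The 95% intervals of the log2 fold change, -0.68 to 0.82 for Cox7a2 and -0.72 to 0.68 for Cox6a1, leave room for changes in either direction.

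Because both isoforms of a pair were read in the same RNA, their difference was taken within each sample and compared between the groups for 4 pairs. The log2 ratio of Cox8b to Cox8a, set to a mean of 0 over the siRNA-NC arrays, was -0.03, 0.01 and 0.03 there, against 4.27, 4.10 and 4.37 with siRNA-MEG3. The siRNA-NC arrays were tight, and all siRNA-MEG3 arrays lay far above them. Over samples, the ratio was 4.21 higher on the log2 scale, 18.5-fold, where the SD between samples was 0.0071 with siRNA-NC, against 0.16 with siRNA-MEG3 (n = 2 per group). The ratio of Cox7a1 to Cox7a2 was -0.08, 0.27 and -0.20 with siRNA-NC, against 0.93, 1.02 and 0.93 with siRNA-MEG3, without overlap. It was 0.91 higher over samples, 1.87-fold (SD 0.29 and 0.06).

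The ratio of Cox6a2 to Cox6a1 was 0.06, 0.04 and -0.10 with siRNA-NC, against -0.04, -0.05 and -0.04 with siRNA-MEG3, so the groups overlapped. It differed by -0.05 over samples (SD 0.04 and 0.0065). siRNA-NC array 2 was low in each of these 2 genes alone but not in their ratio. The ratio of Cox4i2 to Cox4i1 was mixed, at -0.23, 0.36 and -0.13 against 1.21, -0.91 and 1.27, a difference of 0.07 over samples (SD 0.38 and 1.52). A 2-sided exact permutation test over the 4 samples gave p = 0.333 for the first 3 pairs, the smallest that 2 against 2 can give, and p = 1 for Cox4i2 (0.444 and 1 after Benjamini-Hochberg adjustment over 4 pairs), so this permutation test cannot reach 0.05 here. With all 6 arrays, of which 2 pairs repeat each other, the exact p was 0.1 for the first 2 ratios named and 0.4 for the others, where 0.1 is the smallest possible.

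**Figure D2:**
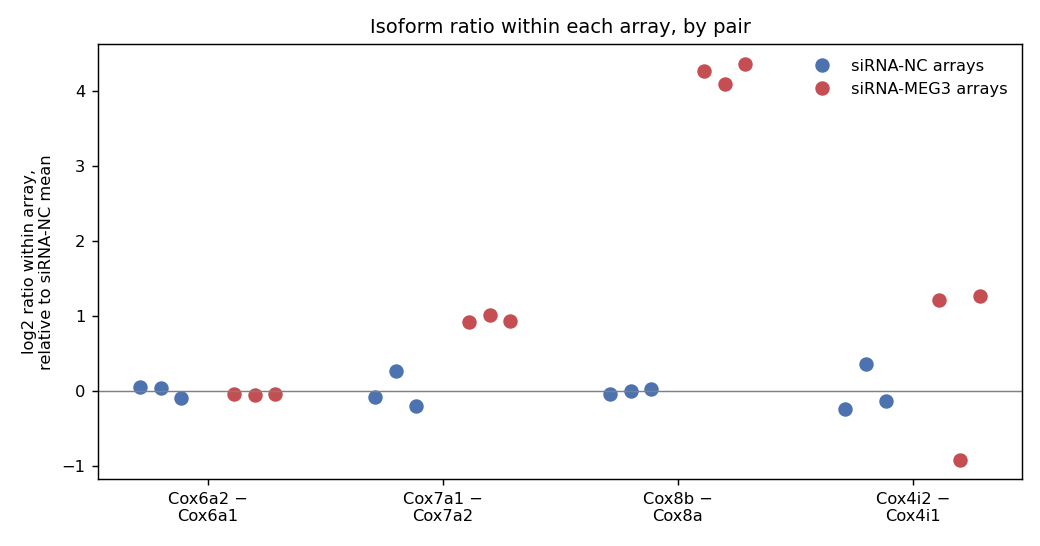
Isoform ratio within each array: y axis, log2 ratio relative to its mean over the siRNA-NC arrays; x axis, isoform pair; each point is 1 array, arrays 1 to 3 from left to right in each group. The Cox8b to Cox8a ratio is 4.10 to 4.37 on the siRNA-MEG3 arrays, the Cox7a1 to Cox7a2 ratio 0.93 to 1.02, and the Cox6a2 to Cox6a1 ratio stays near 0 in both groups.

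Cox4i1, the common form of subunit 4, read 39129, 62942 and 41054 in processed signal with siRNA-NC, against 48535, 47184 and 44512 with siRNA-MEG3. Its log2 levels of 4.93, 4.80 and 5.07 lay below the siRNA-MEG3 levels of 5.34, 5.21 and 5.25 without overlap. Its log2 fold change was 0.36 ± 0.21 (SE, n = 2 samples per group; 95% interval -0.22 to 0.94; limma adjusted p = 0.456), which did not pass.

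Cox4i2 did not pass, and its siRNA-MEG3 arrays lay far apart. Its processed signal was 609, 1477 and 685 with siRNA-NC, against 2053, 458 and 1962 with siRNA-MEG3, or -1.08, -0.62 and -0.83 against 0.78, -1.47 and 0.75 on the scaled log2 axis. siRNA-MEG3 arrays 1 and 3, which repeat each other, were above every siRNA-NC array, and array 2 was below every one. The log2 fold change was 0.43 ± 0.80 (SE, n = 2 samples per group; 95% interval -1.73 to 2.59; limma adjusted p = 0.831), with an SD of 1.58 between the siRNA-MEG3 samples. Without siRNA-MEG3 array 2 the log2 fold change was 1.55. That fit has a lone siRNA-MEG3 sample, and its spread comes from siRNA-NC alone. The SE of 0.52 was the same for Cox8b and Cox7a1, so it does not measure the spread of any single gene.

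The Cox4i2 spot lay in a dark patch of siRNA-MEG3 array 2, that is, a block of 30 rows and 17 columns where more than 5% of the spots fell over 4-fold short of siRNA-NC. Such blocks took up 21.6, 5.66 and 20.5% of siRNA-MEG3 arrays 1 to 3. Its log2 signal was 2.25 higher on array 1 than on array 2 and 2.22 higher on array 3. Among 102 bright spots within 10 rows and 5 columns of it, 13 (12.7%) were more than 1 higher on array 1 than on array 2, 0 were more than 1 lower, and the median was -0.07; 7 differed by at least as much as Cox4i2. Over 24305 bright spots of the whole array, 3.37% were more than 1 higher and 2.79% more than 1 lower, and 1.06% differed by that much in size. The part of the patch in the Cox4i2 value was not tested. The brighter Cox8a probe lay in such a patch of array 2 too, with array 1 minus array 2 at -0.09, and Cox6a2 and Cox6a1 in one of array 1, at 0.05 and 0.04. The spots of Cox8b, Cox7a1, Cox7a2 and Cox4i1 lay in none.

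**Figure D3:**
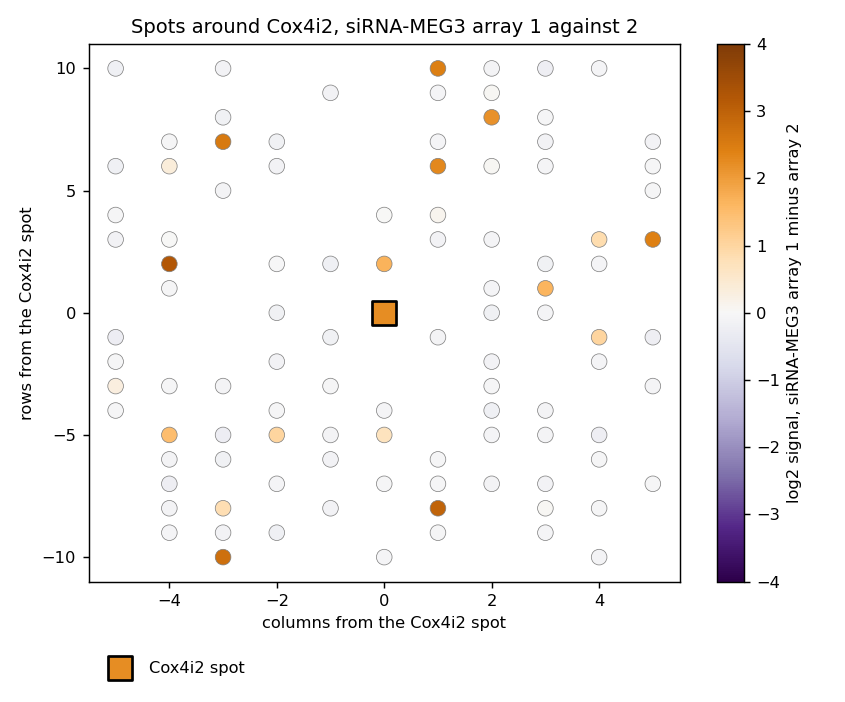
Bright spots around Cox4i2 on the array surface: x and y axes, columns and rows from the Cox4i2 spot (square); colour, log2 signal of siRNA-MEG3 array 1 minus array 2. Spots as different as Cox4i2 (2.25) are scattered among spots near 0, and no neighbour is below -1.

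Genes whose profile over the 6 arrays was nearest were found by the root mean square difference of log2 values, each gene centred on its own mean, among 15250 named genes. Nearest to Cox8b were Hoxb4 (a homeobox transcription factor; 0.06, with a log2 fold change of 4.49), Slc6a19 (a transporter of neutral amino acids; 0.09 and 4.40) and Cav3 (a caveolin; 0.09 and 4.62), each with a limma adjusted p of 0.0185. Nearest to Cox7a1 were Jagn1, Gtpbp8 and Opn3, at 0.04 to 0.05, with fold changes of 0.97, 0.98 and 1.00 that did not pass. Nearest to Cox6a2 were Myl6, Vangl1 and Atrip, at 0.02 each. Cox4i2 had Ugt2a1 at 0.06, and then Sntb1 and Gm9258 at 0.12. No muscle isoform was among the nearest genes of another. This measure follows the size of the fold change, which was -0.07 for Cox6a2, 0.98 for Cox7a1 and 4.54 for Cox8b. It therefore gives no result apart from those values.

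Markers of muscle differentiation differed along with Cox8b. Summed over Myog, Mymk, Ckm and Myh3, the linear signal relative to the array's 75th percentile was 0.470 to 0.576 with siRNA-NC, against 14.6 to 15.4 with siRNA-MEG3. Myh3 alone made up 10.7 to 11.3 of the siRNA-MEG3 sums. Myog (log2 fold change 3.46), Mymk (2.92) and Myh3 (7.05) passed. Ckm (1.77, limma adjusted p = 0.0655) did not, and was dim, at 0.00859 to 0.0185 with siRNA-NC and 0.0354 to 0.0449 with siRNA-MEG3. The summed myoblast markers were 1.40 to 1.73 and 3.29 to 3.60, with none of the 4 passing. These 4 did not go one way: the log2 fold change was 2.29 for Myod1, 1.41 for Cdh15, -0.22 for Des and -2.87 for Myf5 (limma adjusted p from 0.0701 to 0.887), and Cdh15 alone made up 2.48 to 2.75 of the siRNA-MEG3 sums. Among 9 brown adipocyte markers, Ucp1, Cidea, Elovl3 and Prdm16 were well above background on no array. Of the others, 5 were so on all siRNA-NC arrays and 3 on all siRNA-MEG3 arrays. The sum was 2.70 to 3.48 against 2.50 to 2.59, of which Dio2 made up 1.75 to 2.07 and 0.995 to 1.03. These 5 did not go one way either. The log2 fold change was -0.86 for Dio2, -1.08 for Adipoq, -1.14 for Plin1, 0.37 for Pparg and 0.67 for Fabp4 (limma adjusted p from 0.153 to 0.555). The summed cardiac markers, of which 4 of 5 were well above background in each group, were 0.227 to 0.297 and 0.377 to 0.392. The 2 endothelial markers summed to 0.140 to 0.205 and 0.106 to 0.464, and the leukocyte marker Ptprc, the 1 of 2 that was on the array, had a relative signal of 0.0137 to 0.0245 and 0.00910 to 0.0222. In bulk RNA, more cells of a type and more RNA per cell cannot be told apart, and the part of differentiation in the Cox8b value was not tested.

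With 4 samples no other gene of the enzyme passed the threshold. Of 14 other structural subunit genes 11 were on the array and 10 were tested. Of these, 0 were called higher and 0 lower, where 1.10% of all genes were called higher and 0.417% lower. Their median log2 fold change was 0.27. The core subunits encoded in the mitochondrion were not matched to a probe and are not analysed here. The member with the smallest p was Cox7b2, a testis-type form of subunit 7B, which read 21.1, 46.7 and 21.6 with siRNA-NC, against 55.6, 48.1 and 53.3 with siRNA-MEG3. Its log2 fold change was 1.15 ± 0.24 (SE, n = 2 samples per group; limma adjusted p = 0.128). The lowest value was that of Cox5b, a matrix-side subunit, at -0.47, named after its value was seen.

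Of 30 assembly factor genes, 28 were tested and 0 were called in either direction, where 1.52% of all genes were. Their median was -0.08 (13 positive, 15 negative). Cox17, the copper chaperone that hands copper on for the catalytic core, had the smallest p. Its processed signal was 632, 768 and 690 with siRNA-NC, against 75.1, 29.6 and 78.7 with siRNA-MEG3, so all siRNA-MEG3 arrays were far lower. That probe lay in no dark patch, and a second Cox17 probe was well above background on no array (9.10 to 18.9). The brighter probe gave a log2 fold change of -3.44 ± 0.59 (SE, n = 2 samples per group; limma adjusted p = 0.0946), which did not pass. It passed in 6 of 21 other settings, among them normexp without speck spots, those with a very bright local background (-1.84; limma adjusted p = 0.0404), with an adjusted p from 1.16e-05 to 0.798 over all of them. The other assembly factors lay between -0.89 (Cox10, which makes the haem A precursor, named after its value was seen) and 0.67.

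With 4 samples the medians of the other respiratory complexes lay near 0. With normexp on all spots they were between -0.44 and -0.36, where the median of all genes was 0.57. Without siRNA-NC array 2 they were between -0.35 and -0.26, where the median of all genes was -0.03. Of 36 complex I subunit genes 0 were called (median -0.03), and Ndufb2 had the smallest p (-0.74 ± 0.27, SE; limma adjusted p = 0.251). Of 14 genes for complex II, complex III and cytochrome c 0 were called (median 0.01), with cytochrome c1 gene Cyc1 first at 0.89 ± 0.21 (limma adjusted p = 0.152). Of 15 ATP synthase genes 0 were called (median -0.11), with Atp5o first at -0.54 ± 0.20 (limma adjusted p = 0.266). All these values have n = 2 samples per group, in a fit that called 1.52% of all genes in either direction.

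The listed regulators showed no call either. Of 19 regulators of mitochondrial biogenesis 15 were tested (median 0.13), and the smallest p was that of Prkaa2, a catalytic subunit of the energy sensor AMPK, at 1.47 ± 0.31 (SE, n = 2 samples per group; limma adjusted p = 0.129). The coactivator gene Ppargc1a stood at 0.05, the nuclear respiratory factor gene Nrf1 at 0.02, and the mitochondrial transcription factor gene Tfam at 0.71 (limma adjusted p = 0.207), 3 genes named after their values were seen. Of 15 regulators of Cox4i2 and hypoxia targets 0 were called (median -0.11), with the oxygen-sensing hydroxylase gene Egln3 first at 1.04 ± 0.24 (limma adjusted p = 0.139). Over the 7 lists, 0 of 133 genes passed, where 1.52% of all genes did in either direction. Of the 133, 11 (8.27%) had an unadjusted limma p under 0.05, beside 19.5% of all genes. Their arrays did not overlap for 27 genes with siRNA-MEG3 higher and for 21 with siRNA-MEG3 lower (29.3 and 17.8% of all genes). In the fit of 6 arrays as 6 samples, 22 of the listed genes were called. That fit called 5935 genes, 17.2% of all 21945 higher and 9.88% lower. Further settings called 1 to 7 listed genes, given in the closing section beside the calls over all genes.

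**Figure D4:**
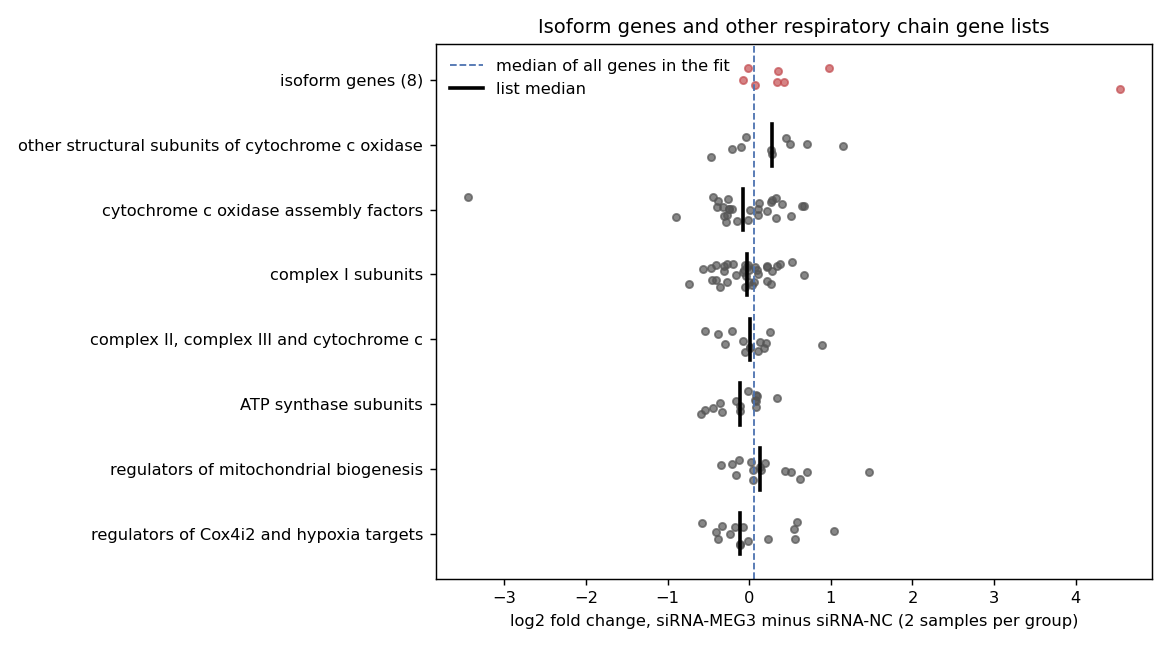
Log2 fold change of every tested gene in each list: x axis, siRNA-MEG3 minus siRNA-NC with 2 samples per group; each dot is 1 gene, red for the 8 isoform genes and grey for the 7 lists; black bars, list medians; dashed line, median of all genes (0.06). Cox8b at 4.54 and Cox17 at -3.44 are the dots farthest from 0, and the list medians lie between -0.11 and 0.27.

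**Figure D5:**
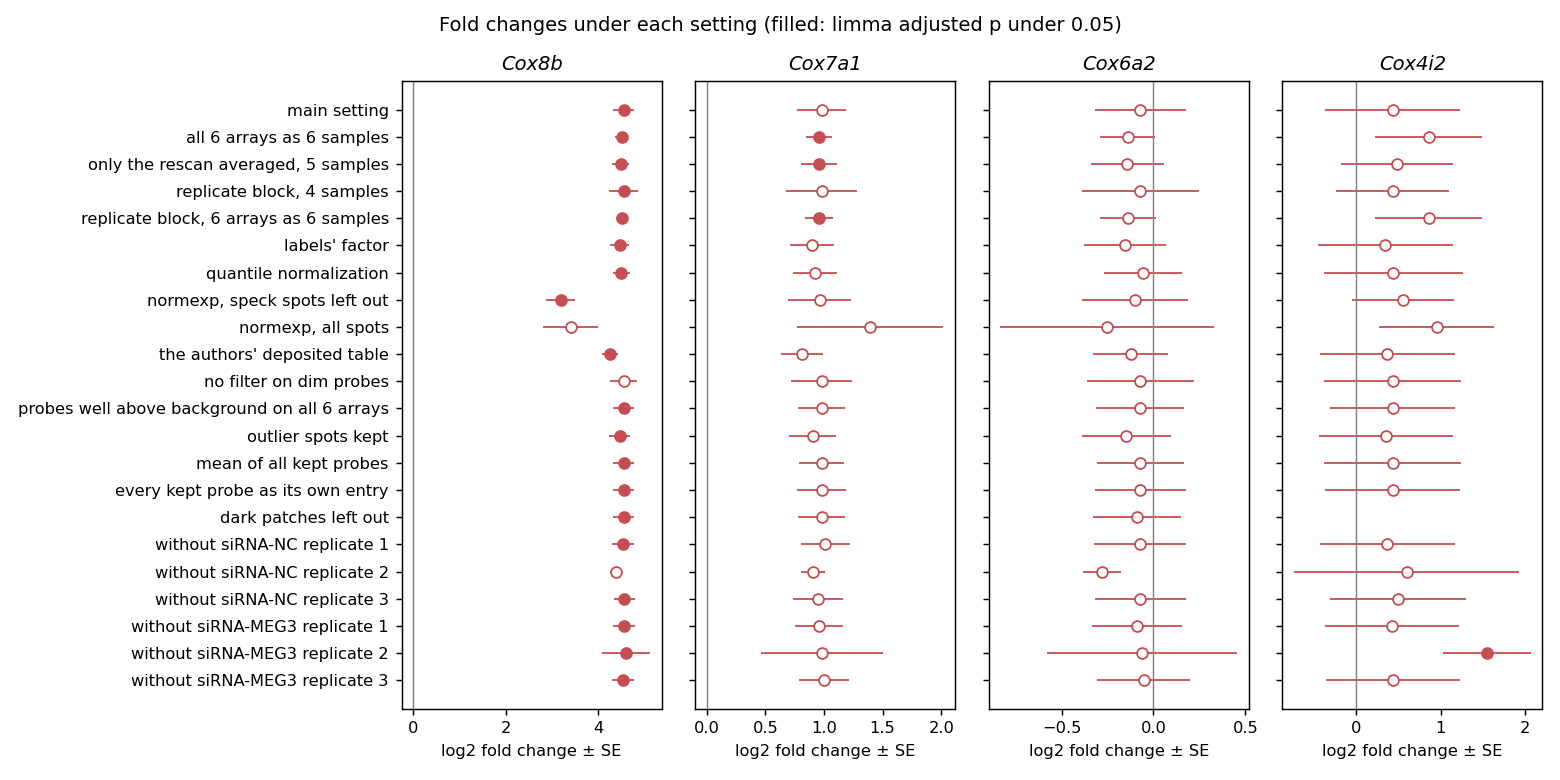
Fold change of the muscle isoforms and Cox4i2 under each setting: x axis, log2 fold change with its SE; rows, settings; filled circles, limma adjusted p under 0.05. Cox8b lies between 3.18 and 4.59 in every setting shown, Cox7a1 between 0.81 and 1.40, Cox6a2 between -0.28 and -0.05, and Cox4i2 reaches 1.55 only without siRNA-MEG3 array 2.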

How the data were processed

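The isoform genes and the gene lists were chosen with earlier results of these data known. Per the file headers, the deposited scanner files (Agilent Feature Extraction 11.0.1.1) hold for each spot a processed signal intensity, background-subtracted and detrended within its array. A second deposited table gives the authors' own log2 values of 30732 probes, used as an alternative; each column's median was 8.11, the log2 scale and the direction follow from the scanner values (r at least 0.999), and how the authors brought the arrays to 1 level is not known. Per the labels, the authors took means of repeated probes and a factor from probes of intensity 30 or more.

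Outlier spots were left out, and each array's log2 signal was set against its 75th percentile. Of 39429 probes, 27234 were named through RefSeq accessions (GRCm38.p6). Probes had to be well above background on every array of 1 group or both, and each gene was read from its brightest such probe. The comparison used limma 3.58.1 in R 4.3.3 (2-sided, Benjamini-Hochberg over all genes, threshold 0.05; 2 residual degrees of freedom, prior 2.29); the script was tested on simulated data. Array number limits the precision. Named genes were all isoform genes, the gene of smallest p in each list without a call, and the 3 nearest profiles. The 21 alternatives are given in the closing section.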

Additional observations from a re-analysis of the deposited data

How the results depend on the processing

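Of 335 genes called with 4 samples, the count became 5935 with all 6 arrays as 6 samples, 2037 with 5 samples, 166 with the replicate block over 4 samples and 3197 with the block over 6 arrays, 0 with normexp on all spots (limma, 1022 at an unadjusted p under 0.05) and 0 without a filter on dim probes (4431), and 0 to 2598 when single arrays were left out (0 without siRNA-NC array 2, with 6896 at an unadjusted p under 0.05). Higher genes made up 72.5% of calls, 59.3% with 5 samples, 83.1% with the block over 4 samples and 38.3% without siRNA-MEG3 array 2. The median of all genes moved from 0.06 to 0.28 with normexp without the speck spots and to 0.57 with all spots. Cox8b kept its direction in all 21 settings; it lost its call with normexp on all spots (3.41), without a dim filter (4.54) and without siRNA-NC array 2 (4.37; limma adjusted p = 0.129), and leaving out arrays gave 4.37 to 4.59. Cox7a1 passed at 0.96 with 6 samples, 5 samples and the replicate block over 6 arrays; leaving out arrays gave 0.91 to 1.01. Cox4i2 ranged from 0.37 to 1.55 when arrays were left out, and has no value with dark patches left out.

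Small values changed sign. Cox7a2 became -0.0026 with 6 samples and with the replicate block over 6 arrays, -0.018 with 5 samples, -0.011 with the labels' factor, -0.30 with normexp on all spots, -0.0043 with outlier spots kept, and -0.20 to 0.12 without single arrays. Cox6a1 became 0.12 with quantile normalization, 0.13 in the authors' deposited table and -0.26 to 0.018 without single arrays. Cox4i1 became -0.14 with normexp on all spots. The Cox4i2 minus Cox4i1 difference became -0.074 with quantile normalization and -0.17 in the authors' deposited table, and Cox6a2 minus Cox6a1 became 0.12 with normexp on all spots. The causes were not tested. Same-numbered arrays of the 2 groups did not deviate together (r from -0.04 to -0.03). Since arrays within a group may differ by technical noise alone, these r values cannot decide whether the replicates were paired. The replicate block over 4 samples changed no member's call (Cox8b limma adjusted p = 0.0294). Signal over background limits the Cox8b value, whose siRNA-NC spots were the dimmest of the isoform genes.

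Of the 133 listed genes, 5 were called with 5 samples (Cox17, Cox7b2, Egln3, Cyc1 and Prkaa2), beside 2037 of all 22024 genes. With the block over 6 arrays 7 were called, beside 3197 of 21945. In both settings the called share was smaller among the listed genes than among all genes. The block over 4 samples called 1 (Cox17; limma adjusted p = 0.0464), beside 166 of 22056. Normexp without the speck spots called 1 (Cox17), beside 316 of 22056. Without siRNA-MEG3 array 2 the log2 fold change was -2.70 for Cox17 and 1.62 for Prkaa2. With normexp on all spots the medians of complex I, of complexes II and III with cytochrome c, and of ATP synthase became -0.38, -0.36 and -0.44, and without siRNA-NC array 2 -0.26, -0.26 and -0.35, where the median of all genes was -0.03.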
